A study of Mus musculus with 11 samples.

Results

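Genes that build fatty acids, triglycerides and cholesterol were examined in mouse liver across chow feeding, a high-fat diet and a fast. The set was chosen by name from these pathways, 49 genes in all, and a gene was measured where the array's table of spots and genes gives it a spot. A spot was found for 45 of them, in 46 of the 17280 spots of the array, and 25 held a value on at least 1 of the 10 arrays compared (25 of 46 spots, against 43.1% of all spots). The 11 genes with 2 or more values in every group were tested. They are Acss2, Fasn, Scd1, Fads2, Agpat2, Dgat2, Pnpla3, Cidec, Mlxipl, Fdft1 and Ebp.

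Livers came from C57/BL/6J mice in 3 groups. Control mice ate chow with 6.5% fat, 49% carbohydrate and 23% protein for 10 weeks (4 arrays), and high-fat mice a diet with 42.16% fat, 42.81% carbohydrate and 15.02% protein for the same time (4 arrays). Fasted mice ate the high-fat diet as well and had no food for the last 48 h (3 arrays), so fasted against control sets diet and fast together against chow. None of these groups was fasted after chow. Per the labels each array holds the liver RNA of 1 mouse, labelled with Cy5, against a universal mouse reference RNA labelled with Cy3. Sex and age are unstated in the sources used here. The basis of the percentages, weight or energy, is not given with them, so those of chow and of the high-fat diet may not share a scale. Chow held 3.5 kcal per g and the high-fat diet 4.53. The diets differ in carbohydrate, protein and energy density as well as fat.

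Liver makes fatty acids from acetyl-CoA, which ATP citrate lyase and acetyl-CoA synthetase (Acss2) supply, through acetyl-CoA carboxylase and fatty acid synthase. The products are elongated and desaturated, then esterified to glycerol phosphate and stored in lipid droplets or exported. The transcription factors SREBP-1c (Srebf1), ChREBP (Mlxipl) and the oxysterol receptor LXR alpha (Nr1h3) are known to drive these genes when insulin and carbohydrate are plentiful, and fasting is known to lower them. SREBP-2 (Srebf2) drives cholesterol synthesis when cell sterols are low, and INSIG proteins hold both SREBPs back.

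Levels are log ratios read as log2, liver over reference, each array shifted to put its median spot at 0. High-fat array 4 was left out, since its values correlated with those of the other arrays with a Pearson r between -0.03 and 0.01, while the lowest r between any pair of the other 10 arrays was 0.69. Values were present on 3864 to 5567 of the spots per array. The hepatocyte markers Alb, Ttr, Apoa1, Apoa2, Trf, Cyp2e1, Fgb and Ahsg, 8 of 12 listed, were all tested and had mean ratios above 0 in each group. Of the tested markers of other cell types, Kdr had the highest mean ratio in any group, 1.11 in fasted livers, and markers of red cells (1 of 4 with a spot), pancreas (2 of 5) and muscle (3 of 4) held 0 values; for those without a spot nothing can be said. High-fat arrays had the narrowest spread of ratios: the median absolute deviation was 0.26 to 0.39 there, against 0.43 to 0.52 for control and 0.44 to 0.49 for fasted livers. The arrays are of bulk liver, in which fewer cells of a type and less RNA per cell cannot be told apart. The p-values measure the spread between these arrays, 1 per mouse, in which mouse, labelling and array cannot be told apart. In the limma fit the spread of each gene is drawn towards that of all genes tested.

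Promoter sequences were available for 39 of the 49 genes, in windows from 250 bases before to 50 after the gene's start (RefSeq, GRCm38.p6). Both strands were searched for the letters TCACNCCAC, a form of the sterol regulatory element bound by SREBPs, CCAAT, bound by NF-Y, CACGTG, the E-box, and GGGCGG, the GC box bound by Sp1. CCAAT was present for 29 of the 39 genes (74.4%), against 41.1% of 27025 genes with a window and 37.4% of all windows. GGGCGG was present for 28 (71.8%), against 38.2% of genes and 35.7% of windows, and CACGTG for 8 (20.5%), against 8.09% and 7.15%. TCACNCCAC was found for 2 (5.13%), Mlxipl and Hmgcs1, against 1.44% of genes and 1.24% of windows. A match of letters is a description of the window and not a binding site. Of the 11 tested genes 8 had a window, and 5 of these held CCAAT. The 250 bases before the start in Fasn, in Pnpla3 and in 1 of the windows of Mlxipl are shown because they hold these letters in tested genes. Capitals mark CCAAT or its reverse complement, and in Mlxipl the letters TCACNCCAC. The run of 8 capitals in Fasn holds 2 matches that overlap.
Fasn, chr11:120824548-120824797, minus strand: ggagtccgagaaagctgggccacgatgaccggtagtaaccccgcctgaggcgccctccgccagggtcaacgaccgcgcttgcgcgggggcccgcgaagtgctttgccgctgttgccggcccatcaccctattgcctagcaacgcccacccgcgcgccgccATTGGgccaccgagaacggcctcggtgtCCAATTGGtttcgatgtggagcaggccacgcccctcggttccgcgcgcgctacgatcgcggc
Pnpla3, chr15:84167566-84167815, plus strand: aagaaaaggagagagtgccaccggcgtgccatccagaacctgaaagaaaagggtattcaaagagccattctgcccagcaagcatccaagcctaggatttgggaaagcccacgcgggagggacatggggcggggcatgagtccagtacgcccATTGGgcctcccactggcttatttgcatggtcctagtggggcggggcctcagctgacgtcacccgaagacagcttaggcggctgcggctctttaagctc
Mlxipl, chr5:135106641-135106890, plus strand: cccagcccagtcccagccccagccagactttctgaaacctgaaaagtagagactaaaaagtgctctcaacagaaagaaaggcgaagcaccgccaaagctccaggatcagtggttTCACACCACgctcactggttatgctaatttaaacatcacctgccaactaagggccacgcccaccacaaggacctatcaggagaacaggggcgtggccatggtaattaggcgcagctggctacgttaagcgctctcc

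Before levels are compared, the pattern of empty cells has to be given, because it decides which genes could be tested. The rule that left cells empty is unstated in the sources used here, so an empty cell is not a level. G6pdx (which opens the pentose phosphate pathway and so supplies NADPH), Acat2 and Hmgcs1 (the first steps from acetyl-CoA to mevalonate) and Insig1 have no spot in the table used. A further 20 genes have a spot with no value on any of the 10 arrays: Scd2, Elovl1, Elovl6, Gpam, Lpin1, Dgat1, Mogat1, Plin2, Pgd, Srebf1, Mvk, Mvd, Idi1, Fdps, Sqle, Lss, Nsdhl, Hsd17b7, Sc5d and Dhcr7. The master regulator Srebf1 and most of the cholesterol pathway are therefore not measured here. Of the 16 genes for cholesterol synthesis and sterol carriage 14 have a spot, 4 held a value and 2 were tested. Of the 10 genes for triglyceride synthesis and lipid droplets 5 held a value and 4 were tested. For the 9 desaturases and elongases these counts were 6 and 2, for the 8 genes of fatty acid synthesis and its supply 6 and 2, and for the 6 regulators 4 and 1.

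The number of the 46 spots with a value was 11, 23, 14 and 16 on control arrays 1 to 4, 9, 14 and 12 on high-fat arrays 1 to 3, and 16, 13 and 11 on fasted arrays 1 to 3. Control array 2 stood highest with 23 of the 46, and 32.2% of all spots held a value on it. High-fat array 1 had 19.6% of these spots against 29.2% of all spots. For 4 genes, Fads2, Pnpla3, Mlxipl and Ebp, all 10 arrays held a value, which is 8.70% of the spots against 13.1% of all spots. Elovl3 and Elovl5 held values on 2 or more control arrays and on 0 of the 6 high-fat and fasted arrays, a pattern found in 2 of the 46 spots (4.35%) and in 0.747% of all spots. The opposite pattern, 0 control arrays and 2 or more of the others, was found in 0 of the 46 spots and in 2.04% of all spots.

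**Figure D1:**
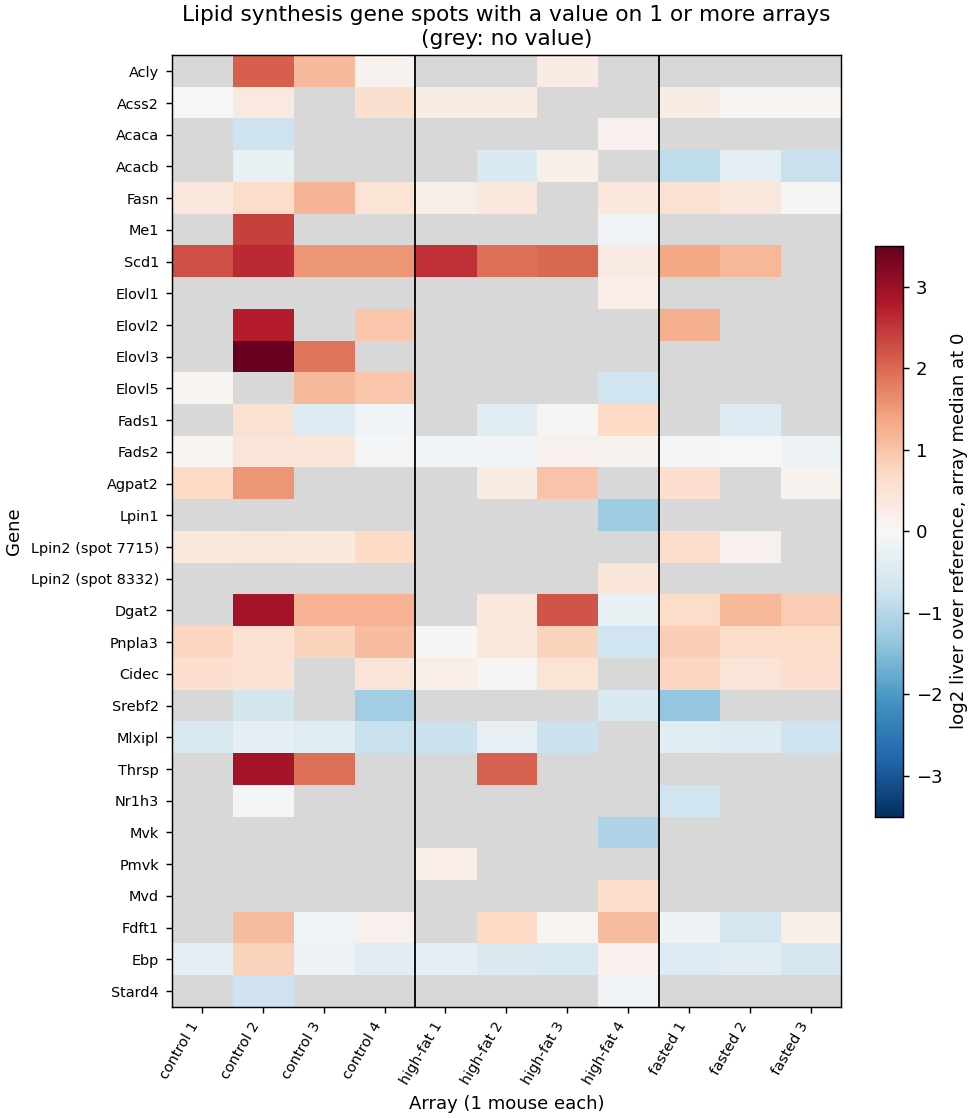
Each row is a spot of a lipid synthesis gene with a value on at least 1 array, each column an array, and colour gives the log2 level, liver over reference, with the array median at 0; grey cells hold no value and black lines part the groups. Control array 2 holds 23 of the 46 spots, and Scd1 is red on all arrays compared that hold it, at 1.15 or more.

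The 14 genes with values that were too few to test are given as measured. Acly, the ATP citrate lyase that makes cytosolic acetyl-CoA, had 2.10, 1.13 and 0.11 on control arrays 2, 3 and 4 and 0.30 on high-fat array 3, with no value on a fasted array. Elovl3, an elongase of saturated and monounsaturated fatty acids, had 3.49 and 1.87 on control arrays 2 and 3. Elovl5, an elongase of polyunsaturated fatty acids, had 0.07, 1.14 and 0.98 on control arrays 1, 3 and 4. The ratios of these genes on control arrays thus lay far apart, by 1.07 or more within the group. Thrsp, known as Spot 14 and induced by carbohydrate and thyroid hormone, had 2.90 and 1.93 on control arrays 2 and 3 and 2.07 on high-fat array 2. Elovl2, which elongates polyunsaturated fatty acids, had 2.75 and 0.97 on control arrays 2 and 4 and 1.24 on fasted array 1. Thrsp and Elovl2 each held 1 value outside control, and that value lay between the control values.

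Me1, the malic enzyme that supplies NADPH, held a value of 2.38 on control array 2 and on no other of the 10 arrays compared. The cytosolic acetyl-CoA carboxylase Acaca and the sterol carrier Stard4 were likewise filled on that array only among the 10, at -0.73 and -0.72. On high-fat array 4, which was left out, these 3 genes had -0.12, 0.14 and -0.13. Pmvk, phosphomevalonate kinase, held 0.24 on high-fat array 1 alone. These 4 genes allow no statement about groups. Nr1h3 had -0.03 on control array 2 and -0.69 on fasted array 1. Srebf2 had -0.63 and -1.23 on control arrays 2 and 4 and -1.36 on fasted array 1.

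For the other 3 of these genes a pair of groups had 2 or more values each, and these were fitted by asking for values in only those groups. Acacb, the mitochondrial acetyl-CoA carboxylase whose product blocks fatty acid import into mitochondria, had -0.26 on control array 2, -0.54 and 0.19 on high-fat arrays 2 and 3, and -0.88, -0.34 and -0.79 on fasted arrays 1 to 3. Its values on fasted and high-fat arrays overlapped, and the difference was -0.49 ± 0.26 (SE, adjusted p = 0.402 by limma). Fads1, the delta-5 desaturase, had 0.53, -0.46 and -0.10 on control arrays 2 to 4 and -0.36 and 0.05 on high-fat arrays 2 and 3, with a difference of -0.14 ± 0.29 (SE, adjusted p = 0.802). Its value on fasted array 2 was -0.44. Lpin2, a phosphatidate phosphatase, had 0.38, 0.40, 0.37 and 0.69 on control arrays 1 to 4 and 0.62 and 0.15 on fasted arrays 1 and 2, with a difference of -0.08 ± 0.18 (SE, adjusted p = 0.849). It held no value on a high-fat array other than array 4, where a second Lpin2 spot was filled.

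**Figure D2:**
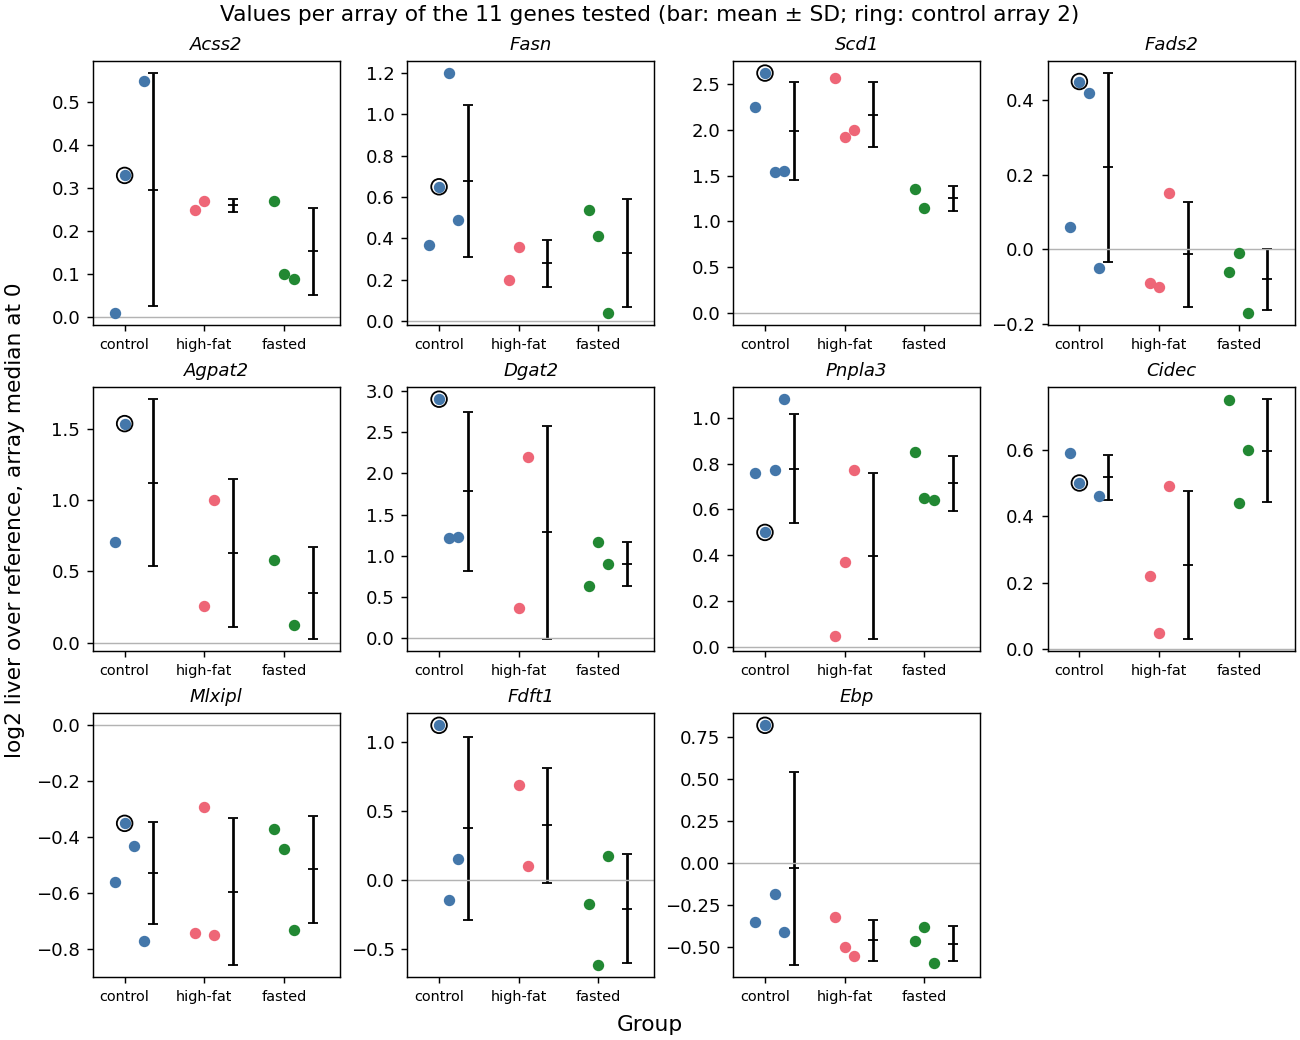
Each panel is a gene that was tested, each point an array, with the log2 ratio of liver over reference on the vertical axis (array median at 0; the axes differ between panels); bars are the mean ± SD of the group and the ring marks control array 2. For Dgat2, Fdft1 and Ebp the ringed point stands above every other value of its group by 0.97 or more.

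Among genes of fatty acid synthesis, Acss2, which makes acetyl-CoA from acetate, had 0.01, 0.33 and 0.55 on control arrays 1, 2 and 4, 0.25 and 0.27 on high-fat arrays 1 and 2, and 0.27, 0.10 and 0.09 on fasted arrays 1 to 3. The high-fat and fasted values all lay within the range of the control arrays. Fasn, the fatty acid synthase, had 0.37, 0.65, 1.20 and 0.49 on control arrays 1 to 4, 0.20 and 0.36 on high-fat arrays 1 and 2, and 0.54, 0.41 and 0.04 on fasted arrays 1 to 3. Both high-fat values lay below every control value, by 0.01 at the closest, and the fasted values overlapped with both groups. High-fat array 3 had no value for either gene.

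Scd1, the stearoyl-CoA desaturase that makes oleate and palmitoleate, had 2.25, 2.62, 1.54 and 1.55 on control arrays 1 to 4, 2.57, 1.92 and 2.00 on high-fat arrays 1 to 3, and 1.35 and 1.15 on fasted arrays 1 and 2. Both fasted values lay below all control and all high-fat values, while control and high-fat overlapped. Fads2, the delta-6 desaturase of polyunsaturated fatty acid synthesis, had 0.06, 0.45, 0.42 and -0.05 on control arrays 1 to 4, -0.09, -0.10 and 0.15 on high-fat arrays 1 to 3, and -0.06, -0.01 and -0.17 on fasted arrays 1 to 3. Control arrays 2 and 3 stood above all other arrays for Fads2, and the groups overlapped.

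In triglyceride synthesis, Agpat2, which adds the second fatty acid to glycerol phosphate, had 0.71 and 1.54 on control arrays 1 and 2, 0.26 and 1.00 on high-fat arrays 2 and 3, and 0.58 and 0.12 on fasted arrays 1 and 3. The fasted values lay below the control values and overlapped with the high-fat values. Dgat2, which completes triglyceride synthesis in liver, had 2.90, 1.22 and 1.23 on control arrays 2 to 4, 0.37 and 2.2 on high-fat arrays 2 and 3, and 0.63, 1.17 and 0.90 on fasted arrays 1 to 3. Its fasted values were all below the control values, the closest pair 0.05 apart, and lay inside the span of the high-fat values.

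Pnpla3, a lipid droplet protein known for a human variant linked to fatty liver and induced by SREBP-1c, had 0.76, 0.50, 0.77 and 1.08 on control arrays 1 to 4, 0.05, 0.37 and 0.77 on high-fat arrays 1 to 3, and 0.85, 0.65 and 0.64 on fasted arrays 1 to 3. High-fat arrays 1 and 2 were the lowest of the 10 arrays, and array 3 lay among the others. Cidec, a lipid droplet protein that lets droplets fuse and grow, had 0.59, 0.50 and 0.46 on control arrays 1, 2 and 4, 0.22, 0.05 and 0.49 on high-fat arrays 1 to 3, and 0.75, 0.44 and 0.60 on fasted arrays 1 to 3. The same high-fat arrays, 1 and 2, were the lowest for Cidec, and array 3 again lay among the other groups.

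The regulator Mlxipl had -0.56, -0.35, -0.43 and -0.77 on control arrays 1 to 4, -0.74, -0.29 and -0.75 on high-fat arrays 1 to 3, and -0.37, -0.44 and -0.73 on fasted arrays 1 to 3. Each group spanned nearly the same range. In cholesterol synthesis, Fdft1, the squalene synthase that commits the pathway to sterols, had 1.12, -0.15 and 0.15 on control arrays 2 to 4, 0.69 and 0.10 on high-fat arrays 2 and 3, and -0.18, -0.62 and 0.17 on fasted arrays 1 to 3. Ebp, the sterol isomerase that acts later in the pathway, had -0.35, 0.82, -0.18 and -0.41 on control arrays 1 to 4, -0.32, -0.50 and -0.55 on high-fat arrays 1 to 3, and -0.46, -0.38 and -0.59 on fasted arrays 1 to 3. Of the 10 arrays, control array 2 was the only one above 0 for Ebp, and for both genes the groups overlapped.

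The first comparison asks what the high-fat diet altered against chow. None of the 11 genes passed the test (limma, adjusted p under 0.05 over 3558 genes, 0 higher and 0 lower), where 4.92% of all genes did, 2.95% higher and 1.97% lower. Of the 11, 0 had an unadjusted p under 0.05, against 25.2% of all genes. The 11 were measured less precisely, with a median SE of 0.228 against 0.165 over all genes tested. The shares over all genes are not matched for this. The split of all calls was 105 higher and 70 lower, and it moved to 137 and 22 with quantile normalisation, 101 and 24 with scaled arrays, 35 and 51 with values as deposited, and 55 and 82 with centring on spots filled on all 10 arrays. The 4 genes of triglyceride synthesis and droplets all had differences below 0, with a median of -0.44. Dgat2 had -0.50 ± 0.57 (SE, adjusted p = 0.632), Agpat2 -0.49 ± 0.34 (SE, adjusted p = 0.409), Pnpla3 -0.38 ± 0.18 (SE, adjusted p = 0.212) and Cidec -0.26 ± 0.15 (SE, adjusted p = 0.294). Pnpla3 had the smallest adjusted p of the 11 genes, and its 95% confidence interval ran from -0.77 to 0.013.

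Outside triglyceride synthesis, Ebp had a difference of -0.43 ± 0.25 (SE, adjusted p = 0.301) and Fasn of -0.40 ± 0.23 (SE, adjusted p = 0.30). Fads2 had -0.23, Mlxipl -0.07, Acss2 -0.04, Fdft1 0.02 and Scd1 0.17, with adjusted p of 0.352 or more. With ratios read as log2 and arrays centred on their median, the intervals of Mlxipl (-0.41 to 0.28) and Acss2 (-0.43 to 0.36) leave out any difference of 1 log2 unit. The same holds for Fasn, Scd1, Fads2, Pnpla3, Cidec, Fdft1 and Ebp. Those of Dgat2 (-1.77 to 0.78) and Agpat2 (-1.29 to 0.30) do not leave it out. Fasn was the 1 gene of 11 without overlap between the groups, lower in high-fat, against 25.4% of all genes in either direction and 8.77% lower.

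In all 9 of the 11 genes had a difference below 0, against 39.5% of all genes, and the median was -0.26 against 0.08 over all genes. These counts rest in part on control array 2. Without it the median was -0.08 and 7 of 10 genes lay below 0, Dgat2 turned to 0.06 and Ebp stood at -0.14. Agpat2 then had 1 control value and was not tested. Other single arrays moved other genes: without control array 3 Fasn had -0.22 and Dgat2 -0.78, without high-fat array 1 Pnpla3 had -0.21, and without high-fat array 2 Cidec had -0.16. On control array 2 the tested genes had a median deviation from the control mean of 0.23 and were the highest of their group in 7 of 11 cases. The 7 hepatocyte markers filled on all 10 arrays deviated there by 0.65, with 6 of 7 the highest of their group. Over the 2262 genes filled on all 10 arrays, this array was the highest of its group for 537. Some of the 11 tested genes had fewer control values than these. All 8 hepatocyte markers had differences below 0 between high-fat and control, with a median of -0.60. Of these 8, 1 passed the test as lower (adjusted p = 0.0480 by limma), against 1.97% of all genes. An unadjusted p under 0.05 was found for 6 of the 8, against 25.2% of all genes. The part of these markers in the result was not tested. Scd1 moved with the scaling of arrays: its difference was 1.06 with arrays scaled to a common spread (adjusted p = 0.219) and 0.86 with quantile normalisation (adjusted p = 0.0772).

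**Figure D3:**
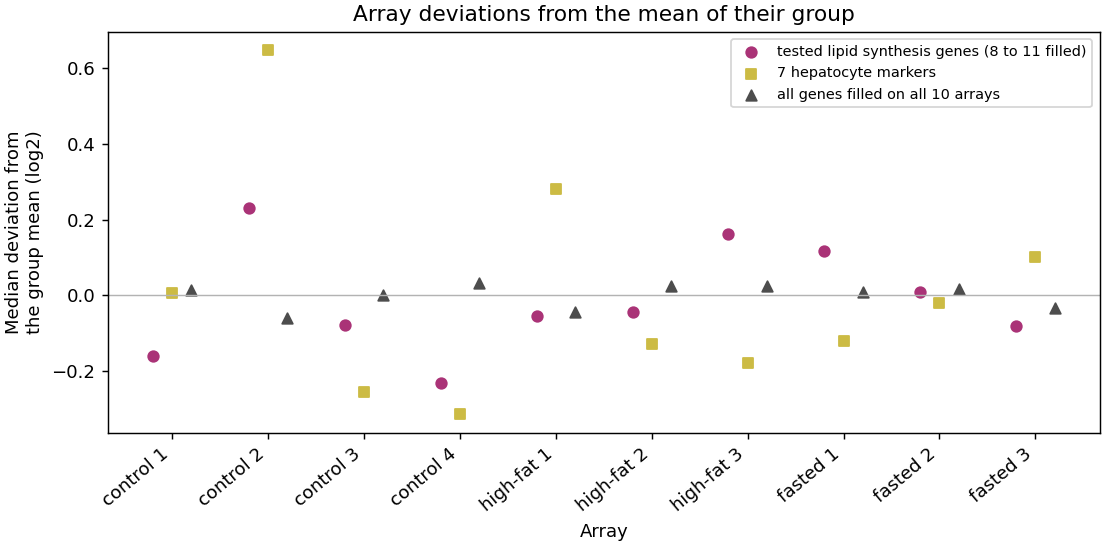
For each array the plot gives the median deviation (log2) from the mean of its own group over the tested lipid synthesis genes (circles), over 7 hepatocyte markers (squares) and over all genes filled on all 10 arrays (triangles). Circles and squares are both highest on control array 2, at 0.23 and 0.65, where the triangle lies at -0.06.

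The second comparison concerns the 48 h fast alone, in mice that shared the high-fat diet. Again 0 of the 11 genes passed the test (limma, 0 higher and 0 lower), where 0.365% of all genes did, 0.0843% higher and 0.281% lower. The 3 higher and 10 lower calls became 0 and 15 with scaled arrays, 3 and 21 with quantile normalisation, and 11 and 5 with values as deposited. Of the 11 genes, 2 had an unadjusted p under 0.05, Scd1 and Cidec, against 14.6% of all genes. Their median SE was again larger, 0.241 for the 11 against 0.173 over all genes tested. Scd1 had 2.16 ± 0.35 (SD, n = 3) in high-fat and 1.25 ± 0.14 (SD, n = 2) in fasted livers. This is a difference of -0.91 ± 0.32 (SE), or 1.88-fold, with an interval from -1.62 to -0.21 and an adjusted p of 0.241. Cidec differed the other way. It stood at 0.25 ± 0.22 (SD, n = 3) in high-fat and 0.60 ± 0.16 (SD, n = 3) in fasted livers, a difference of 0.34 ± 0.15 (SE, adjusted p = 0.326 by limma). The difference of Cidec ran from 0.11 with neighbouring spots subtracted, in an assumed slide layout, to 0.55 with values as deposited. It was 0.24 without high-fat array 2. Pnpla3 had 0.32 ± 0.19 (SE, adjusted p = 0.448), which was 0.14 without high-fat array 1 and 0.50 without high-fat array 3. The lipid droplet genes Cidec and Pnpla3 thus had differences above 0, and the triglyceride enzymes Dgat2 (-0.39, and -0.25 without fasted array 1) and Agpat2 (-0.28) below 0, all without passing the test.

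Fdft1 had a difference of -0.61 ± 0.36 (SE, adjusted p = 0.448), and -0.40 without fasted array 2. The other values were -0.11 for Acss2, -0.07 for Fads2, -0.02 for Ebp, 0.05 for Fasn and 0.08 for Mlxipl, with adjusted p of 0.814 or more. Under the same reading and centring the interval of Fasn ran from -0.48 to 0.58, so a difference of 1 log2 unit in either direction lies outside it. For Fads2 it ran from -0.41 to 0.28 and for Mlxipl from -0.29 to 0.45. The intervals of Acss2, Pnpla3, Cidec and Ebp leave out 1 log2 unit as well. Those of Scd1, Agpat2, Dgat2 and Fdft1 do not. Scd1 was the 1 gene of 11 without overlap, against 28.8% of all genes in either direction and 17.8% lower. A difference below 0 was found for 7 of 11 genes, against 56.5% of all genes, with medians of -0.07 and -0.05. With values as deposited, 4 of 11 lay below 0. Beside this, 5 of 8 hepatocyte markers had differences above 0, with a median of 0.10. The other 3 were below 0, the lowest Ttr at -0.77, and 0 of the 8 passed the test (limma). Scd1 stayed below 0 under each alternative that gave it a value, from -1.69 with scaled arrays to -0.45 with all 11 arrays. It had an adjusted p of 0.0910 with only the 2 groups in the fit, and it could not be tested without fasted array 1 or 2.

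The third comparison sets fasted livers of high-fat fed mice against chow. It shares the control arrays with the first and the fasted arrays with the second, so its values are not independent of theirs. None of the 11 genes passed (limma, 0 higher and 0 lower), where 3.20% of all genes did, 2.16% higher and 1.04% lower. The split of all calls was 77 higher and 37 lower, and it moved to 180 and 18 with values as deposited, 69 and 11 with quantile normalisation, 8 and 2 with scaled arrays, and 39 and 52 with centring on spots filled on all 10 arrays. Of the 11 genes, 1 had an unadjusted p under 0.05, Scd1, against 20.4% of all genes. The median SE of the 11 was 0.201, against 0.164 over all genes tested. Scd1 went from 1.99 ± 0.54 (SD, n = 4) to 1.25 ± 0.14 (SD, n = 2), a difference of -0.74 ± 0.30 (SE, adjusted p = 0.201). The difference of Scd1 ran from -0.89 to -0.33 over the alternatives. It was -0.33 with quantile normalisation (unadjusted p = 0.269 by limma) and -0.63 with scaled arrays (unadjusted p = 0.230). Dgat2 had -0.88 ± 0.51 (SE, adjusted p = 0.364), Agpat2 -0.78 ± 0.34 (SE, adjusted p = 0.254), Fdft1 -0.58 ± 0.33 (SE, adjusted p = 0.349) and Ebp -0.45 ± 0.25 (SE, adjusted p = 0.336). The droplet genes had -0.06 (Pnpla3) and 0.08 (Cidec).

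Fasn had -0.35 ± 0.20 (SE, adjusted p = 0.361), Fads2 -0.30 ± 0.15 (SE, adjusted p = 0.281), Acss2 -0.14 and Mlxipl 0.014. Mlxipl was within 0.08 of no difference in all 3 comparisons with arrays centred on their median, but this depends on the processing. With scaled arrays it had -0.29 with the diet and 0.32 with the fast, with quantile normalisation -0.24 and 0.27, and with values as deposited 0.28 with the fast. The groups did not overlap for 3 of the 11 genes, Scd1, Agpat2 and Dgat2, all lower in fasted livers, against 22.2% of all genes in either direction and 9.58% lower. Scd1 had 2 fasted and 4 control values, Agpat2 2 and 2, and Dgat2 3 and 3. Groups with fewer values overlap less often, and the share over all genes is not matched for this. In all 9 of 11 lay below 0, against 47.9% of all genes, with a median of -0.35 against 0.015. Without control array 2 the median was -0.19 and 8 of 10 lay below 0. Dgat2 then had -0.33, Ebp -0.16 and Fdft1 -0.21, each closer to 0 than with that array, and Pnpla3 had -0.16, farther from 0. Fasn had -0.17 without control array 3 and -0.20 without fasted array 3, Fdft1 -0.38 without fasted array 2, and Acss2 -0.29 without control array 1. All 8 hepatocyte markers had differences below 0 here too, with a median of -0.63, and Ttr fell (-1.38 ± 0.24, SE, adjusted p = 0.0216 by limma). The endothelial marker Kdr, the 1 of 7 tested, rose by 0.90 ± 0.15 (SE, adjusted p = 0.0181 by limma). The part of these markers in the result was not tested.

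**Figure D4:**
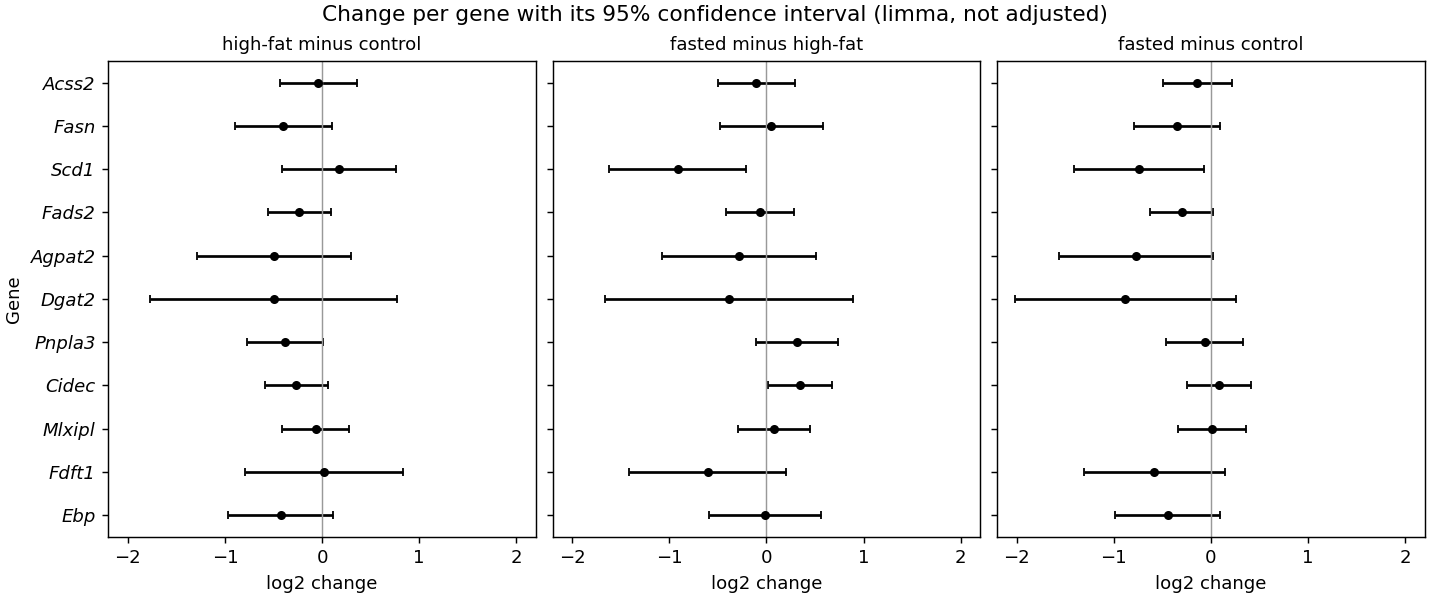
Points are log2 differences between groups for each tested gene and bars their 95% confidence intervals from limma, not adjusted for the number of genes; the 3 panels are the 3 comparisons. Only the intervals of Scd1 after the fast (against high-fat and against control) and of Cidec (fasted minus high-fat) leave out 0.

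Other genes of lipid metabolism were taken from a list of 117 that excludes the genes above, of which 88 have a spot and 22 were tested. In each of the 3 comparisons 0 of the 22 passed in either direction (limma), where 4.92%, 0.365% and 3.20% of all genes did. An unadjusted p under 0.05 was found for 5, 2 and 4 of the 22, against 25.2%, 14.6% and 20.4% of all genes. Groups without overlap were found for 3, 4 and 1 of the 22, against 25.4%, 28.8% and 22.2% of all genes. Their medians were -0.06, 0.06 and 0.007. Those with the smallest p are named. Pnpla2, the adipose triglyceride lipase that opens triglyceride breakdown, had 1.70 ± 0.16 (SD, n = 4) in control, 1.23 ± 0.15 (SD, n = 3) in high-fat and 1.31 ± 0.14 (SD, n = 3) in fasted livers. Its differences from control were -0.46 ± 0.14 (SE, adjusted p = 0.0671) with the diet and -0.39 ± 0.14 (SE, adjusted p = 0.133) with diet and fast, and in both the groups did not overlap. Slc27a5, the bile acid and fatty acyl-CoA ligase of liver, had -1.17 ± 0.37 (SE, adjusted p = 0.0817) with the diet and 0.78 ± 0.40 (SE, adjusted p = 0.377) with the fast.

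Foxo1, a transcription factor that insulin holds out of the nucleus, had 0.13 ± 0.04 (SD, n = 4) in control, 0.42 ± 0.01 (SD, n = 3) in high-fat and 0.06 ± 0.06 (SD, n = 3) in fasted livers. High-fat arrays lay above both other groups without overlap. Its differences were 0.29 ± 0.10 (SE, adjusted p = 0.119) with the diet and -0.36 ± 0.11 (SE, adjusted p = 0.171) with the fast. Oxsm, the condensing enzyme of mitochondrial fatty acid synthesis, had 0.30 with the diet (adjusted p = 0.258), -0.73 ± 0.17 (SE, adjusted p = 0.0945) with the fast and -0.43 between fasted and control (adjusted p = 0.154). The value after the fast was the smallest adjusted p of the 22 genes in that comparison.

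With the diet, the sterol transfer protein Stard3 had 0.48 (adjusted p = 0.122) and Usf2, which binds E-boxes of lipogenic promoters, -0.26 (adjusted p = 0.180). With the fast, the phosphatidylcholine enzyme Pcyt1a had -0.27, the geranylgeranyl diphosphate synthase Ggps1 0.32 and the hormone-sensitive lipase Lipe -0.21, with adjusted p of 0.399 or more. Between fasted and control Pcyt1a had -0.41 ± 0.14 (SE, adjusted p = 0.121), the kinase Akt1 0.35 (adjusted p = 0.243), the fatty acid transporter Slc27a4 0.29 (adjusted p = 0.254) and Lipe -0.32 (adjusted p = 0.259).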

How the data were processed

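Liver RNA of 11 mice was measured on 2-colour arrays. The deposited values are log ratios (liver, Cy5, over reference, Cy3) and were read as log2. What the authors did before that is not stated in the sources used here: the base, the scanner, background correction, normalisation and the rule for empty cells. Another base would multiply every difference by 1 constant. Array medians lay between 0.07 and 0.47 before each array was centred on its median here. Intensities were not used here; precision is limited by how many arrays there are.

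Spots were named from the platform's table, 14718 with 1 symbol, 1 with several and 2561 with none. Spots of 1 symbol were averaged. High-fat array 4 was left out by a rule made after values had been seen. Genes with 2 or more values in each of the 3 groups, 3558 in all, entered a limma fit (version 3.58.1, R 4.3.3) of 3 group means, with 4.96 prior degrees of freedom, two-sided tests, and Benjamini-Hochberg adjustment within a comparison. The pipeline was tested on simulated data. All tested members and up to 6 other lipid genes with the smallest p per comparison are named. The members and all lists were chosen with earlier results of these data known, so no test is made over a list. Alternatives are given in the closing section. For the alternative with neighbouring spots subtracted, the slide layout is not given in the sources used here. Neighbours were taken from the order of the table, in assumed rows of 20 spots, within 2 rows and columns. Replicate numbers were not used to pair the mice in the main fit.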

Additional observations from a re-analysis of the deposited data

Results flagged for a closer look

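High-fat array 4 enters no comparison, since it correlated with no other array and its values may not be those of the genes named. On it 18 of the 46 spots held a value. For 4 genes its value stood above the highest control value: Fads1 at 0.70 against 0.53, Acaca at 0.14 against -0.73, Stard4 at -0.13 against -0.72 and Srebf2 at -0.52 against -0.63. Scd1, at 1.15 or more on each other array that holds it, had 0.29 there. Elovl1, Lpin1, Mvd and Mvk held a value on this array alone, 0.22, -1.24, 0.62 and -1.07.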

How the results depend on the processing

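No lipid synthesis gene was called in any comparison under any of the 22 alternatives, where the smallest adjusted p was 0.0772, 0.0910 and 0.117 for the 3 comparisons in the order above. The replicate block, with a fitted correlation of 0.0065, also gave 0 calls. Deviations of same-numbered arrays correlated between -0.18 and 0.18, and those of differently numbered arrays between -0.23 and 0.25. The number of calls over all genes ran from 22 to 190, 3 to 49 and 5 to 198. Signs turned in 37 of 657 recomputed differences, among them that of Dgat2 with the diet, the largest of the 11; the cause was not tested.

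High-fat minus control turned for Scd1 with all 11 arrays (-0.29); for Fdft1 with centring on spots filled on all 10 arrays (-0.0817); for Acss2 with scaled arrays (0.0846), quantile normalisation (0.11) and neighbouring spots subtracted (0.11); for Dgat2 with quantile normalisation (0.0901); and for Fads2 and Cidec with neighbouring spots subtracted (0.0192 and 0.33). With 1 array left out the ranges were -0.18 to 0.09 for Acss2, -0.03 to 0.38 for Scd1, -0.78 to 0.06 for Dgat2, -0.24 to 0.40 for Fdft1 and -0.22 to 0.0125 for Mlxipl.

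Fasted minus high-fat turned for Dgat2 with all 11 arrays (0.13); for Acss2, Fads2 and Ebp with values as deposited (0.12, 0.14 and 0.18); for Fasn and Ebp with scaled arrays (-0.0636 and 0.13) and quantile normalisation (-0.0712 and 0.12); and for Agpat2 and Ebp with neighbouring spots subtracted (0.05 and 0.12). With 1 array left out the ranges were -0.055 to 0.20 for Fasn, -0.11 to 0.015 for Fads2 and -0.0683 to 0.0483 for Ebp. Fasted minus control turned for Acss2 and Pnpla3 with values as deposited (0.10 and 0.12) and for Cidec and Mlxipl with centring on shared spots (-0.0083 and -0.075). With 1 array left out the ranges were -0.16 to 0.037 for Pnpla3 and -0.0667 to 0.12 for Mlxipl. With values as deposited the median of all genes was 0.16 in fasted minus high-fat and 0.21 in fasted minus control, and that of the tested lipid synthesis genes 0.14 and -0.17.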
